A study of Homo sapiens with 3 samples.

Results

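The 10 genes described here encode brakes on mitogen-activated protein kinase (MAPK) signalling: the dual-specificity phosphatases DUSP1, DUSP4, DUSP5, DUSP6 and DUSP10, the Sprouty proteins SPRY2 and SPRY4, the Sprouty-related proteins SPRED1 and SPRED2, and the receptor-type tyrosine phosphatase PTPRR. They were chosen by gene name from the deposited table, where each had a single row, and make up 10 of its 34520 rows. The table gives FPKM, fragments scaled to transcript length and library size, for SK-N-Be(2), an established line from a human neuroblastoma with amplified MYCN. There were 3 libraries: control cells, cells given arsenic trioxide (ATO) at 2 µM and cells given ATO at 4 µM, the treated cells for 12 h. The header of the control column also gives 12 h. Cells of all groups were kept in the same serum-containing medium, and no genetic change separates the groups. By its title the study takes ATO as a compound that keeps N-Myc, the product of MYCN, from DNA, and the comparisons ask how transcript levels differed from control at each dose and between doses. With 1 library in each group there are no replicates to set a difference against, and neither p-values nor errors between cultures can be given.

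In the best known MAPK cascade, growth factor receptors switch on RAS, RAS switches on the RAF kinases, and these activate the MEK kinases, which phosphorylate ERK on a threonine and a tyrosine. Parallel cascades that respond to stress end in the kinases JNK and p38. Dual-specificity phosphatases remove both phosphates from MAPKs, while Sprouty and SPRED proteins act upstream, between the receptor and RAF. Most of these genes are themselves switched on by the signalling they limit, so they are known as negative feedback genes and are widely read as transcriptional markers of pathway output.

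Across the 3 libraries the group split: DUSP5 was higher and PTPRR lower with each dose, DUSP1 and DUSP6 were moderately higher, and the Sprouty and SPRED genes differed little. DUSP5 went from the lowest FPKM of the 10 genes in the control to the seventh highest at 4 µM, and PTPRR went from the fifth highest to the lowest. Folds are given as log2 ratios of FPKM + 1, which understates differences of low genes. The size rule used here counts a row whose fold is 1 or more, or -1 or less, on this scale. Rows averaging 1 FPKM or more were considered, 12433 in all, and all 10 genes were among them. At 2 µM 1 of the 10 genes passed the size rule, PTPRR (lower), against 2.06% of all considered rows, 1.16% higher and 0.901% lower. At 4 µM 2 of 10 passed, DUSP5 (higher) and PTPRR (lower), against 9.46% of considered rows, 4.19% higher and 5.27% lower. Between the doses the same 2 genes passed in the same directions, against 2.48% of considered rows, 1.14% higher and 1.34% lower. The median log2 fold of the 10 genes was 0.12 at 2 µM and 0.30 at 4 µM, where that of all considered rows was 0.012 and -0.13. With 10 genes, these counts do not set the group apart from the table as a whole.

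**Figure D1:**
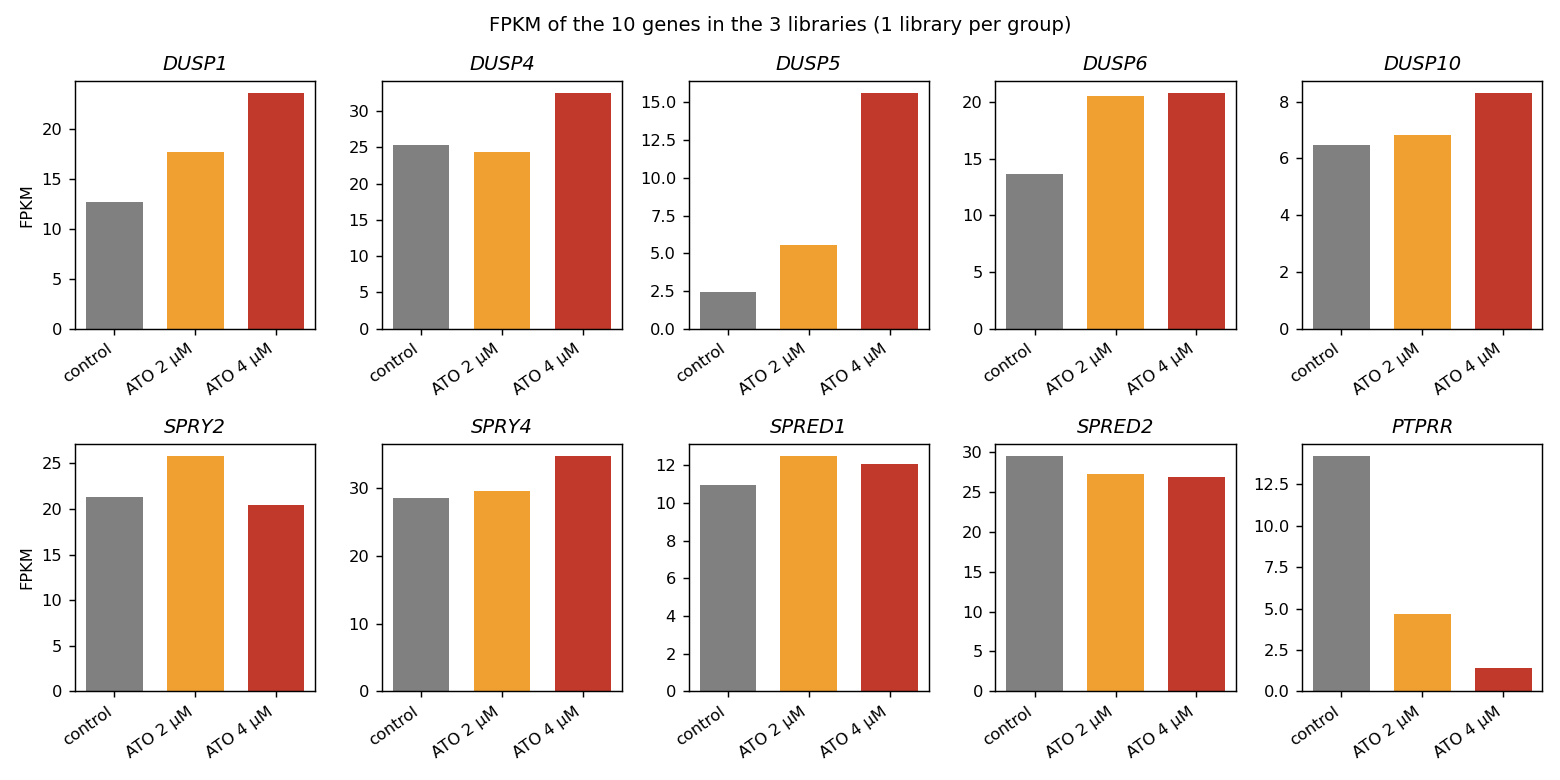
FPKM (vertical axes, each from 0 and scaled to its own gene) of the 10 genes in the control, 2 µM and 4 µM libraries; each bar is 1 library. DUSP5 reached 15.6 FPKM at 4 µM from 2.45 in the control, PTPRR went from 14.2 to 1.42 FPKM, and the bars of SPRED1 and SPRED2 were nearly level.

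The phosphatases of the nucleus that act mainly on ERK were led by DUSP5, which dephosphorylates ERK and holds it in the nucleus. DUSP5 had 2.45 FPKM in the control, 5.57 after 2 µM and 15.6 after 4 µM. The level was higher at each dose, 2.28 times the control at 2 µM and 6.39 times at 4 µM, and the second step, 2.81 times, was the larger. The log2 folds were 0.93 at 2 µM, just inside the size rule, 2.27 at 4 µM and 1.34 between the doses. Of the considered rows, 1.33% had a higher fold than DUSP5 at 2 µM and 0.46% at 4 µM. DUSP4, a nuclear phosphatase of ERK and JNK, had 25.3 FPKM in the control, 24.4 after 2 µM and 32.5 after 4 µM. Its log2 fold was -0.051 at 2 µM and 0.35 at 4 µM, so what difference there was lay between the doses. A pseudogene of DUSP5, DUSP5P1, is listed in the table at 2.24, 1.65 and 1.79 FPKM, so reads could have been split between them. The DUSP5P1 values were not higher with ATO.

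DUSP1, the founding member of the family, is an early stress and growth factor response gene whose product acts in the nucleus on p38, JNK and ERK. It had 12.7 FPKM in the control, 17.7 after 2 µM and 23.6 after 4 µM. The level was higher at each dose by a similar step, with log2 folds of 0.45 and 0.85 against the control and 0.40 between the doses. At 4 µM 5.96% of considered rows had a higher fold. With upper-quartile scaling between libraries the fold at 4 µM was 1.03, past the size rule. DUSP10, a phosphatase selective for p38 and JNK, had 6.46, 6.81 and 8.31 FPKM in the same order. Its log2 folds of 0.065 and 0.32 were below the size rule.

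DUSP6, the cytoplasmic phosphatase selective for ERK and a common marker of ERK output, had 13.7 FPKM in the control, 20.5 after 2 µM and 20.8 after 4 µM. The log2 folds were 0.55 and 0.57 against the control and 0.021 between the doses. That small step depends on the scaling, being 0.17 with median-of-ratios or upper-quartile scaling and 0.11 as TPM. With median-of-ratios the folds against the control were 0.54 and 0.72. From 2 µM to 4 µM the deposited level differed by a factor of 1.02 in DUSP6 and of 2.81 in DUSP5. In GENCODE 29 an antisense gene, AC024909.2, overlaps an exon of DUSP6, and whether reads were counted by strand is not stated. Its row stood at 0.546, 0.891 and 0.856 FPKM, far below DUSP6.

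PTPRR, a tyrosine phosphatase of neurons that binds MAPKs through a kinase interaction motif and removes the phosphate from the tyrosine of ERK, had 14.2 FPKM in the control, 4.66 after 2 µM and 1.42 after 4 µM. The control was 3.06 times as high as 2 µM and 10.0 times as high as 4 µM, and each dose step was of about the same proportion. The log2 folds were -1.43 and -2.65 against the control and -1.22 between the doses. Only 0.17% of considered rows had a lower fold at 2 µM and 0.09% at 4 µM. A processed pseudogene on the other strand, FAHD2P1, overlaps an exon of PTPRR, and its row had 3.75, 1.36 and 0.342 FPKM. It was lower beside PTPRR, and without a stated strand the reads of the overlap cannot be told apart.

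**Figure D2:**
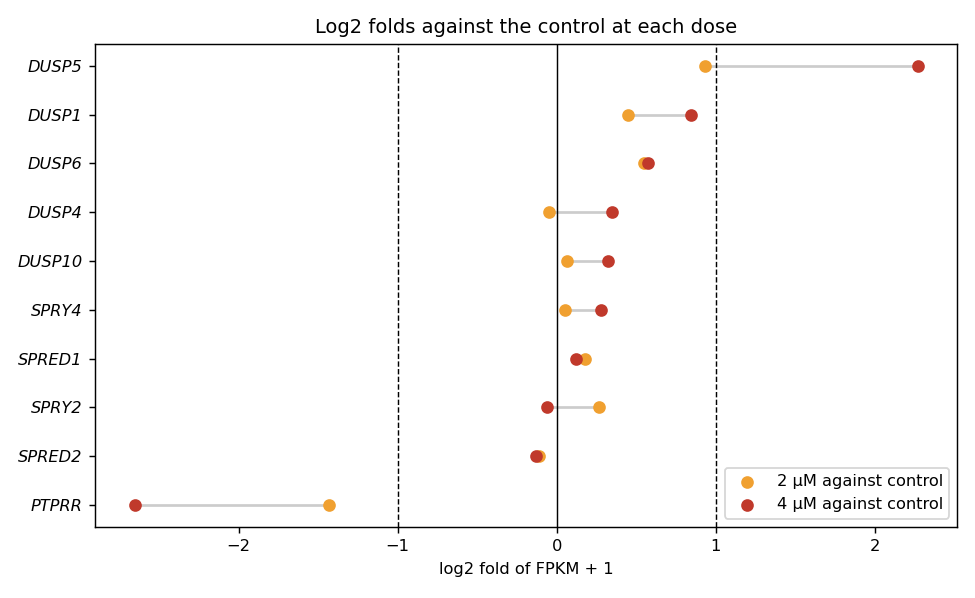
Log2 folds of FPKM + 1 against the control (horizontal axis) for each of the 10 genes at 2 µM (orange) and 4 µM (red), with dashed lines at the size rule; a grey line joins the doses of a gene. DUSP5 (0.93 and 2.27) and PTPRR (-1.43 and -2.65) lie apart from the other genes, DUSP6 has 0.55 and 0.57 (0.54 and 0.72 with median-of-ratios scaling), and both comparisons share the control library.

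The promoters of DUSP1 and DUSP6, which were higher at both doses, and of PTPRR, which was lower, are shown to set the sequences beside the different responses. Each window runs from 250 bases before to 50 bases after a start site annotated by RefSeq on GRCh38.p14, all on the minus strand and written 5′ to 3′. They are DUSP1 at chr5:172771146-172771445, DUSP6 at chr12:89352452-89352751 and, for PTPRR, the most upstream of its 3 listed windows at chr12:70788871-70789170. Capitals mark matches, on either strand, to the motifs described after the sequences.
DUSP1: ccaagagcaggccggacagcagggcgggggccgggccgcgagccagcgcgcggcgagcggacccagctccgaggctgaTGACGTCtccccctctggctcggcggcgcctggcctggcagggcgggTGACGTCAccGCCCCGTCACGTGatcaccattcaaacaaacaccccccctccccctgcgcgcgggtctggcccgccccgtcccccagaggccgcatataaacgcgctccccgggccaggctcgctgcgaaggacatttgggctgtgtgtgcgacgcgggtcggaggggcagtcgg
DUSP6: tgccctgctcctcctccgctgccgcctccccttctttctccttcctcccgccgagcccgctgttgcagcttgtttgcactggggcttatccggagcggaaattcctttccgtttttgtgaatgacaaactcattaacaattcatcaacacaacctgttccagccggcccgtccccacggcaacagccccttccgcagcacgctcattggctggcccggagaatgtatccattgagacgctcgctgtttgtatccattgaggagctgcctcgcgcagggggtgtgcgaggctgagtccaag
PTPRR: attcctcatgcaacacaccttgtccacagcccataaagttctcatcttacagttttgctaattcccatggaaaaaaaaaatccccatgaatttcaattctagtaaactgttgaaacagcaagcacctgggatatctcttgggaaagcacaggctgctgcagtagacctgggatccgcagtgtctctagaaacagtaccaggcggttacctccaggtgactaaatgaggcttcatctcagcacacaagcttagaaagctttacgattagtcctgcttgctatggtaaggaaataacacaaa
The DUSP1 window held the full cyclic AMP response element TGACGTCA, the site of CREB and ATF factors, 125 to 118 bases before the start, which 1.85% of 35116 promoter windows of this length held. It also held a further TGACGTC, the first 7 bases of that element, at 172 to 166 bases before the start. That string, which every full element contains, was in 3.45% of windows. The E-box CACGTG, the site of MYC and related factors, lay 108 to 103 bases before the start of DUSP1 and was in 7.26% of windows. It overlaps a match to TGACNNNGC, the core of the antioxidant response element, which was in 13.3% of windows. Among the 14 windows of the 8 genes matched in the table, SPRED2 also held TGACGTC, and another of its windows the AP-1 site TGANTCA (7.71% of all windows) and the string TGATGNAA of C/EBP-ATF factors (3.62%). The antioxidant core was further found in DUSP10 and SPRY4. None of the 14 windows held the ETS site CCGGAAG (10.3% of all windows) or the heat shock element (0.49%). DUSP4 and DUSP5 were not among the matched genes. These matches describe letters in the reference, and no binding was measured.

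By level among the 10 genes, SPRY4 ranked 2 in the control and 1 at both doses, and SPRY2 ranked 4, 3 and 6. SPRY4, an inhibitor of RAS and RAF signalling, had 28.5 FPKM in the control, 29.6 after 2 µM and 34.8 after 4 µM, the highest level of the group at both doses. Its log2 folds were 0.054 and 0.28. SPRY2, which binds the adaptor GRB2 and the ubiquitin ligase CBL, had 21.3, 25.8 and 20.4 FPKM, with the highest value at 2 µM. Its log2 fold was 0.27 at 2 µM and -0.06 at 4 µM, where it turned to 0.087 (median-of-ratios) and 0.12 (upper-quartile) after scaling. The paralog SPRY1 did not follow them. It had 9.06, 7.16 and 3.52 FPKM, a log2 fold of -1.15 at 4 µM, which was -0.995 and so inside the size rule with upper-quartile scaling.

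Neither SPRED gene among the 10 passed the size rule in any comparison. SPRED1, which brings the RAS inhibitor neurofibromin to the membrane, had 11.0 FPKM in the control, 12.5 after 2 µM and 12.1 after 4 µM, log2 folds of 0.17 and 0.12. SPRED2 had 29.5, 27.3 and 26.9 FPKM, the highest of the 10 genes in the control, with log2 folds of -0.11 and -0.13, the latter turning to 0.015 (median-of-ratios) and 0.051 (upper-quartile) after scaling. The related SPRED3 was lower in level, at 0.86, 1.73 and 2.36 FPKM, with a log2 fold of 0.85 at 4 µM.

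FPKM values are per length, which allows levels to be set side by side between genes. The lengths used are not stated, and the orders given here depend on them. In the control the order from high to low was SPRED2, SPRY4, DUSP4, SPRY2, PTPRR, DUSP6, DUSP1, SPRED1, DUSP10 and DUSP5. At 4 µM it was SPRY4, DUSP4, SPRED2, DUSP1, DUSP6, SPRY2, DUSP5, SPRED1, DUSP10 and PTPRR. Without replicates no neighbours in these orders can be said to differ. PTPRR was above 76.5% of considered rows in the control and above 11.5% at 4 µM, and DUSP5 was above 20.5% and 79.4%. The summed level of the 10 genes was 165 FPKM in the control, 175 after 2 µM and 196 after 4 µM. By dose, 5 genes were higher at each step (DUSP1, DUSP5, DUSP6, DUSP10 and SPRY4), 2 were lower at each step (SPRED2 and PTPRR), SPRY2 and SPRED1 were highest at 2 µM, and DUSP4 was lowest there. The steps of SPRED1 and SPRED2 from 2 µM to 4 µM, -0.052 and -0.022, turned positive under each scaling.

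**Figure D3:**
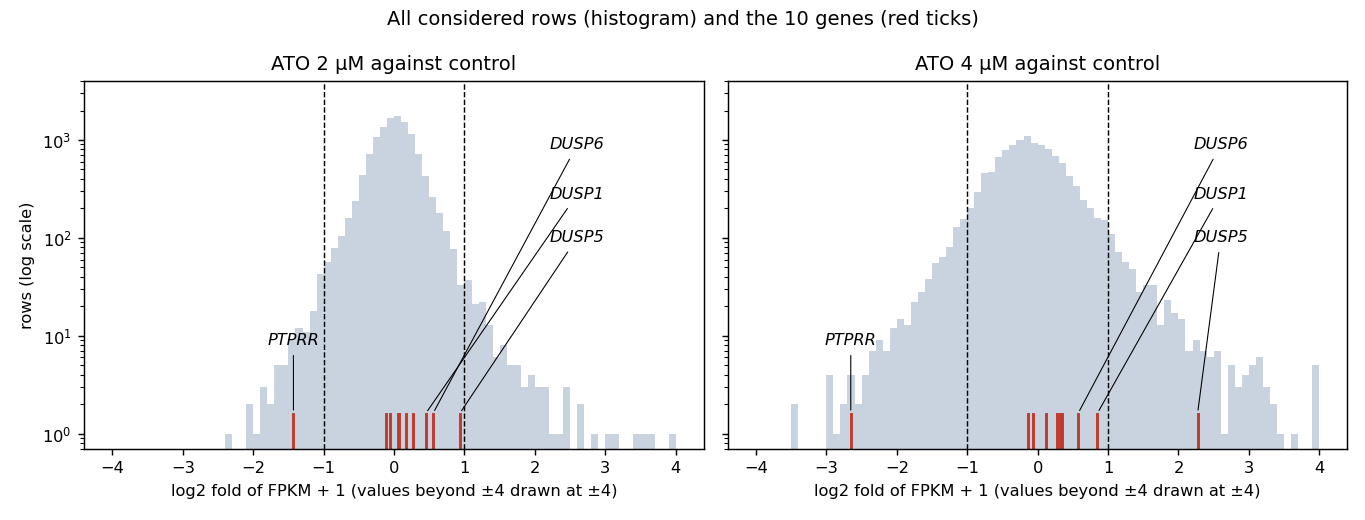
Log2 folds of FPKM + 1 (horizontal axis) of the 12433 considered rows, as row counts on a log axis, at 2 µM and at 4 µM against the control; red ticks are the 10 genes and dashed lines the size rule. PTPRR lies in the lower tail at both doses, DUSP5 stands just inside the upper line at 2 µM and beyond it at 4 µM, and the other 8 ticks lie inside the lines.

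For the 3 genes with the largest absolute fold at 4 µM, the rows with the most similar pair of folds at 2 µM and 4 µM were found by Euclidean distance on the log2 scale among 11167 considered rows with a symbol. This likeness rests on 3 libraries. The nearest to DUSP5 were the collagenase gene MMP1 (22.6, 42.9 and 115 FPKM, distance 0.041) and ZFAND2A, known as an arsenite-inducible gene (2.72, 5.98 and 17.6 FPKM, distance 0.057). Nearest to PTPRR were the matrix metalloproteinase gene MMP11 (14.8, 5.02 and 1.44 FPKM, distance 0.059) and ISLR (24.1, 8.90 and 2.91 FPKM, distance 0.090). DUSP1 lay nearest to SH3BP5L (12.5, 17.2 and 23.3 FPKM) and LRRFIP2 (2.83, 4.19 and 5.94 FPKM), both at 0.016.

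Of 7 further MAPK phosphatase genes listed, 4 were considered, with a median log2 fold of -0.19 at 4 µM (-0.061 with median-of-ratios scaling). None passed the size rule at 2 µM or 4 µM on the FPKM scale, against 2.06% and 9.46% of considered rows. DUSP2, a nuclear phosphatase, had 5.23, 3.02 and 2.14 FPKM (log2 fold -0.99 at 4 µM), and DUSP8, which acts on JNK and p38, had 2.13, 3.24 and 4.15 FPKM (0.72). DUSP7 and DUSP16 had -0.20 and -0.18. DUSP9, PTPN5 and PTPN7 lay below 1 FPKM on average, PTPN5 and PTPN7 being the closest relatives of PTPRR. As TPM, on the scale of TPM + 1, DUSP2 passed the rule at 4 µM (-1.14). The 1 added on that scale is less than 1 FPKM, which by itself enlarges the folds of low genes.

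Of 12 other inhibitors of RAS and ERK signalling, 9 were considered. At 4 µM 2 passed the size rule, in opposite directions, against 9.46% of considered rows. ERRFI1, an inhibitor of the EGF receptor family, had 7.59 FPKM in the control, 17.3 after 2 µM and 31.6 after 4 µM, log2 folds of 1.09 and 1.92. The other was SPRY1, already described. IL17RD, which encodes the feedback inhibitor Sef, had 2.77, 1.36 and 0.948 FPKM (-0.95 at 4 µM). As TPM, with its smaller pseudocount, the low genes IL17RD (-1.29) and SPRED3 (1.28) also passed the rule. The median of this list at 4 µM was -0.33, and -0.19 with median-of-ratios scaling.

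The kinases and adaptors of the ERK cascade had 22 of 23 genes considered. None passed the size rule at 2 µM and 1 at 4 µM, against 2.06% and 9.46% of considered rows. That gene, MAP2K1, encodes the ERK kinase MEK1 and had 7.21, 14.3 and 24.1 FPKM, log2 folds of 0.90 and 1.61. RPS6KA3, an ERK-activated kinase gene, had 11.8, 16.1 and 23.0 FPKM (0.91 at 4 µM), past the rule as 1.06 (median-of-ratios) and 1.09 (upper-quartile) after scaling and as 1.01 in TPM. The scaffold gene KSR1 had a log2 fold of 0.72 at 4 µM. The list median was 0.092 at 2 µM and 0.11 at 4 µM, the latter 0.24 (median-of-ratios) and 0.27 (upper-quartile) once libraries were scaled.

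Transcripts known to respond to ERK went both ways. Of 23 listed, 20 were considered, with a list median of 0.51 at 4 µM, where that of all considered rows was -0.13. By the size rule 5 were higher and 1 lower at 4 µM, against 4.19% and 5.27% of considered rows. At 2 µM 3 were higher and none lower, against 1.16% and 0.901% of considered rows, with a median of 0.39. FOSL1, an AP-1 subunit gene, had 6.69, 26.9 and 78.0 FPKM, and HBEGF, the gene of an EGF receptor ligand, had 5.57, 12.9 and 16.8 FPKM (log2 fold 1.44 at 4 µM). FOSL2 (1.37) and MYC (1.36) were also higher at 4 µM. The remaining genes past the rule, named after their values were seen, were MCL1 (1.07) and the ETS factor gene ETV1, which had 9.62, 6.08 and 3.66 FPKM (-1.19). Of the related ETS factor genes, also named after their values were seen, ETV4 had -0.70 and ETV5 0.76. Of the 20, 13 had a fold above 0 at 4 µM, against 40.1% of considered rows. Those below 0 included JUNB (-0.82), CCND1 (-0.72), FOS (-0.20) and EGR1 (-0.092), again named after their values were seen.

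Of 18 listed genes of receptor tyrosine kinases, which feed this cascade, 10 were considered. At 4 µM 3 were lower by the size rule and none was higher, against 5.27% and 4.19% of considered rows. The other 7 did not pass, and the median was -0.37. With median-of-ratios or upper-quartile scaling 2 were lower, with medians of -0.25 and -0.22. RET, a receptor of the sympathetic lineage, had 72.1, 32.1 and 15.7 FPKM (log2 folds -1.14 and -2.13). PDGFRB had 56.0, 32.2 and 25.6 FPKM (-1.10 at 4 µM), which was -0.95 (median-of-ratios) and -0.91 (upper-quartile) after scaling. FGFR2 had -0.81, and -1.24 as TPM. At 2 µM only RET passed the rule, against 2.06% of considered rows. Without scaling 9 of the 10 considered genes had a log2 fold below 0 at both doses, FGFR3 being the exception (0.30 and 0.32). Of all considered rows, 51.6% at 2 µM and 40.1% at 4 µM had a fold above 0.

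**Figure D4:**
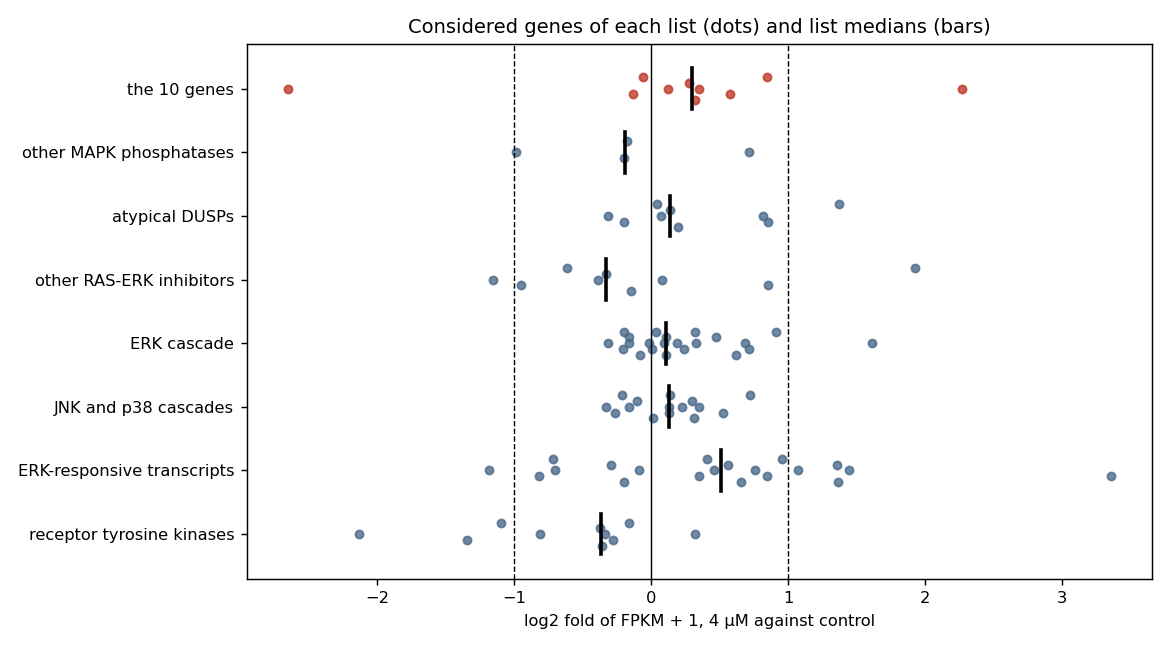
Log2 folds of FPKM + 1 at 4 µM against the control (horizontal axis) of the considered genes of each list, 1 dot per gene, with black bars at list medians and dashed lines at the size rule. The 10 genes (red) spread from -2.65 to 2.27 with a median of 0.30; the ERK-responsive transcripts have the highest median (0.51) of the 8 lists drawn, and the receptor tyrosine kinases the lowest (-0.37).

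The cells carried the markers of their label. Each of 11 sympathetic neuroblastoma markers was considered, and their summed level was 1225 FPKM in the control, 674 after 2 µM and 328 after 4 µM, 832, 412 and 197 of it from MYCN. Fibroblast genes, 5 of 8 considered, summed to 177, 104 and 60.4 FPKM, so they were lower beside PTPRR. All 5 considered fibroblast genes were lower by the size rule at 4 µM, against 5.27% of all considered rows. With median-of-ratios or upper-quartile scaling 3 were. LUM had a log2 fold of -2.30 at 4 µM, COL3A1 -1.73, DCN -1.68 and PDGFRB -1.10. FAP, POSTN and COL1A2, the other fibroblast genes listed, were each below 1 FPKM in every library. Leukocyte, endothelial, epithelial and glial markers summed to at most 5.26 FPKM per list and library. The leukocyte sum was 1.10, 5.07 and 5.26 FPKM, higher at both doses with CD68, a lysosomal protein gene of macrophages. CD68 had 0.534, 3.69 and 4.87 FPKM, log2 folds of 1.61 and 1.94, past the size rule at both doses. The other 6 leukocyte markers in the table, PTPRC among them, were each below 1 FPKM in every library. Within bulk RNA, fewer cells of a kind and less RNA per cell cannot be told apart, and the part of these shifts in the results above was not tested. FPKM summed to between 246878 and 262632 per library. Of the 1176 rows past the size rule at 4 µM 44.3% were higher. After scaling it was 60.1% of the 1191 that passed (median-of-ratios) and 63.7% of 1197 (upper-quartile). The median of all considered rows then went from -0.13 to -0.0033 and 0.028. Median-of-ratios scaling brings that median near 0 by construction. Between the doses 46.1% of 308 rows were higher, against 71.4% and 71.5%.

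**Figure D5:**
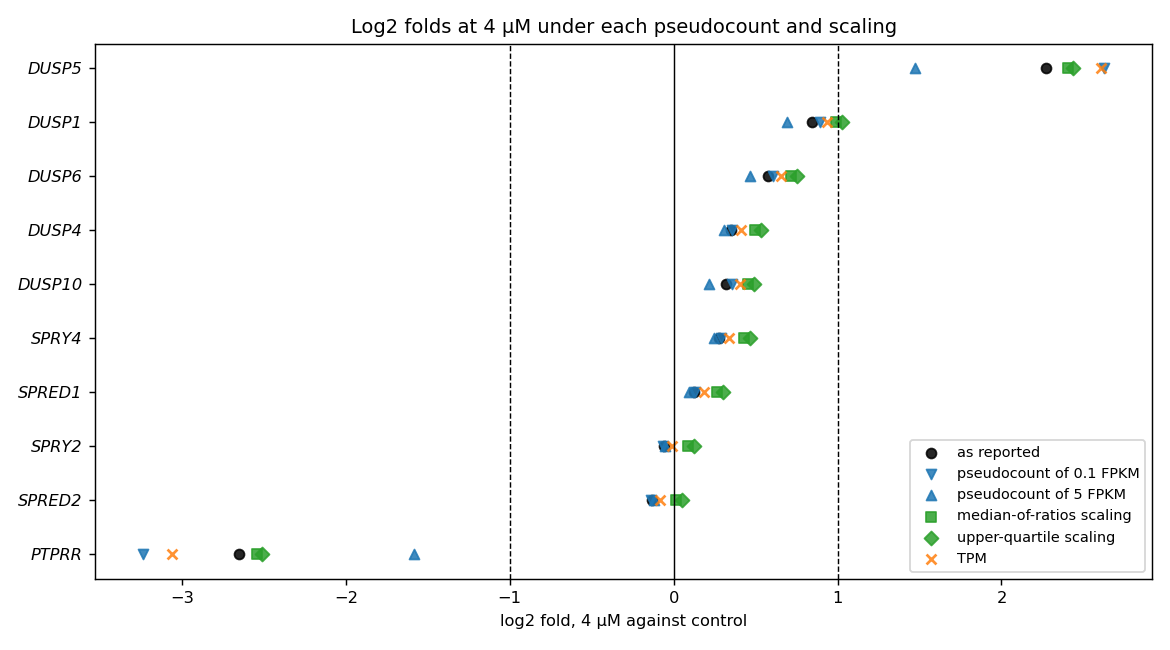
Log2 folds at 4 µM against the control (horizontal axis) of the 10 genes under each pseudocount and each scaling between libraries, 1 symbol per setting, with dashed lines at the size rule. DUSP5 and PTPRR stay beyond the lines in each of the 6 settings drawn, DUSP1 crosses the upper line with upper-quartile scaling (1.03), and SPRY2 and SPRED2 lie around 0.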

How the data were processed

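Total RNA, 1.3 µg per library, went into paired-end TruSeq libraries, per the labels' protocols. For each library the authors deposited a column of FPKM, per the file headers. The sources used here do not name the aligner or the counting tool, nor say whether strand was used. Although the cells and gene symbols are human, GRCm38 and mm10, which are mouse builds, stand in the submitters' processing notes, so the build behind the FPKM values is unsettled and no coordinates are given for them. The only coordinates given are those of the RefSeq promoter windows, on GRCh38.p14.

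From these values the log2 ratio of FPKM + 1 was computed for rows averaging 1 FPKM or more (Python 3.11.15, pandas 2.3.3, numpy 2.4.6), and rows were counted at an absolute value of at least 1. The computation was checked on simulated data. With 1 library per group no test was possible. The 10 genes and all gene lists were chosen with earlier results of these data known. All 10 genes are named, in each other list at most 4 considered genes with the largest absolute fold at 4 µM, and the 2 nearest rows of 3 genes. Some listed genes that the rule names are counted with their lists but not reported here by name. Further genes named after their values were seen are marked in the text, except FGFR3, PTPRC, FAP, POSTN, COL1A2, DUSP9, PTPN5, PTPN7 and rows overlapping or copied from a member, which were also singled out so. CD68 is named by the rule, but it too was singled out after its values were seen.

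Depth is not stated. Low FPKM values of genes with 1 transcript in GENCODE 29, multiplied by transcript length, were most often 0.0280, 0.0272 and 0.0282, which puts the 2 µM and 4 µM libraries at 1.03 and 0.991 times the depth of the control. The search was limited to the first peak, a limit set after the 2 µM library was seen to peak also at the next multiple. Only 18.4% to 19.4% of these values were whole multiples within a tolerance of 0.01, so reads were not recovered. If the longest GENCODE 29 transcript is the length counted, the lowest values, PTPRR at 4 µM and DUSP5 in the control, rest on about 178 and 224 counted units, a counting error of about 7.5% and 6.69%, or 10.6% and 9.46% if 2 units make a fragment. Counting error does not cover the spread between cultures. Promoter windows are from RefSeq, and the 8 motifs were chosen with some of the sequences in view. Alternatives were pseudocounts of 0.1 and 5 FPKM, median-of-ratios and upper-quartile scaling, TPM, and a filter at 0 or at 10 FPKM. On the TPM scale 1 was also added before the log, which is less than 1 FPKM in these libraries.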

Additional observations from a re-analysis of the deposited data

How the results depend on the processing

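With 1 library per group no replicate could be left out, and depth limits low genes only in counting error. No paired analysis was possible because each group has 1 library and the labels give no replicate numbers. The count of the 10 genes past the size rule at 2 µM, 1 as reported, was 2 with a pseudocount of 0.1 FPKM and as TPM, where DUSP5 joined PTPRR (log2 folds of 1.15 and 1.07), and 0 with a pseudocount of 5 FPKM, where PTPRR stood at -0.99. Between the doses, 2 as reported, it was 0 with a pseudocount of 5 FPKM (DUSP5 0.97, PTPRR -0.59). With a mean of at least 10 FPKM it was 0 in each of the 3 comparisons, since DUSP5, PTPRR and DUSP10 fall below that filter by construction. At 4 µM the other settings gave 2 or, with upper-quartile scaling, 3.

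Over all considered rows, 256 passed at 2 µM as reported, 506 with a pseudocount of 0.1 FPKM, 61 with 5 FPKM, 437 as TPM and 103 at a mean of at least 10 FPKM. At 4 µM, 1176 passed as reported, 1949 and 390 with these pseudocounts and 474 with that mean. Between the doses, 308 passed as reported, 735 and 77 with these pseudocounts, 573 as TPM and 134 with that mean. The FPKM of a library summed to at most 262632, below the total to which TPM scales. As TPM the 1 added before the log is thus a smaller pseudocount than 1 FPKM. The parts of this smaller pseudocount and of the scaling between libraries in the shift as TPM were not tested.

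Of 150 single-gene values under alternatives, 134 kept their direction and side of the size rule, 3 came to lie past it, 3 no longer passed it and 10 reversed. At 4 µM SPRY2 reversed to 0.087 and 0.12 and SPRED2 to 0.015 and 0.051 with median-of-ratios and upper-quartile scaling. Between the doses SPRED1 reversed to 0.097, 0.096 and 0.033 and SPRED2 to 0.13, 0.13 and 0.066 with median-of-ratios scaling, upper-quartile scaling and TPM.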

Other observations

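Atypical dual-specificity phosphatases lack the MAPK-binding domain of the DUSP genes described above. Of 13 listed, 9 were considered, with a median log2 fold of 0.14 at 4 µM. By the size rule 1 was higher and none lower there, against 4.19% and 5.27% of considered rows. That gene was DUSP3, whose product can also act on ERK and JNK, with 8.50 FPKM in the control, 11.8 after 2 µM and 23.5 after 4 µM (log2 fold 1.37). DUSP14 had 7.62, 11.6 and 14.6 FPKM (0.85 at 4 µM, and 1.03 with upper-quartile scaling). DUSP18 had 0.485, 1.40 and 1.62 FPKM (0.82, and 1.38 as TPM) and STYX, a catalytically inactive relative, 6.71, 5.68 and 5.20 FPKM (-0.32).

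The kinases of the JNK and p38 cascades, 15 of 18 considered, had no gene past the size rule at 2 µM or 4 µM. Of all considered rows 2.06% and 9.46% passed. The median log2 fold of these kinases was 0.17 at 2 µM and 0.13 at 4 µM. The order of these medians turned with scaling, to 0.16 and 0.27 (median-of-ratios), 0.20 and 0.30 (upper-quartile) and 0.15 and 0.20 (TPM). MAP2K3, which activates p38, had 3.84, 6.44 and 7.00 FPKM (0.72 at 4 µM). The stress-activated kinase gene MAP3K5 had 4.08, 5.26 and 6.31 FPKM (0.52), MAPKAPK2 had 0.35 and MAPK12 had -0.33.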
